A study of Homo sapiens with 6 samples.

Results

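Integrins are the receptors that hold a cell to its matrix, and the genes described here are those of their subunits together with the adaptor and kinase genes of the focal adhesion. The genes were taken by name from a list of 40, and every probe set that carried 1 gene symbol from that list was used. This gave 40 probe sets for 39 genes, of 33297 probe sets and 18417 named genes on the array. PXN had 2 probe sets. ITGA1 was named only on a probe set that also carried PELO and was not analysed here. RNA came from U2OS cells, an established human osteosarcoma line, that had been given siRNA 2 times and were collected on day 4. The 6 arrays formed 3 groups of 2. The control group received siRNA against luciferase, a gene these cells lack. The second received siRNA against H3.Y, a primate-specific histone H3 variant, and the third received siRNA directed at H3.X together with H3.Y and is called the combined knockdown here. The labels do not say how the combined knockdown was composed. They name the arrays of a group biological replicates and say nothing of how the cultures were separated. The spread behind each p-value is that between arrays of a group, shared by the 3 groups and drawn toward that of all probe sets. It may be only technical.

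An integrin is a pair of 1 alpha and 1 beta subunit that spans the membrane. Outside the cell the pair binds fibronectin, collagen, laminin or another ligand. Inside, talin and kindlin bind the beta tail and switch the receptor on, while vinculin, paxillin, the ILK complex and focal adhesion kinase tie it to actin and to signalling. An alpha subunit reaches the surface only with a beta partner, and the beta subunits that join alphaV give receptors for ligands with an Arg-Gly-Asp (RGD) motif. In osteosarcoma and bone cells such receptors are known for adhesion, spreading and, for some pairs, release of latent TGF-beta.

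All values are log2 expression levels per probe set as deposited, so a difference of 1 log2 unit is 2-fold. A probe set was called when its adjusted p was under 0.05 in limma over all 33297 probe sets of that comparison. The 6 arrays had medians of 5.10 to 5.14. The siRNA targets could not be read, since 0 probe sets carried the symbol H3Y1 or H3Y2. The 7 mesenchymal and osteoblast lineage markers averaged 8.01 and 7.81 log2 units with luciferase and 7.93 and 7.81 after H3.Y siRNA. In the combined knockdown they averaged 8.57 and 8.44. Of their 7 probe sets, 0 had a mean under 5.11, the median of all probe set means. For cell types that own the more restricted integrins, 5 of 7 leukocyte, 4 of 4 platelet and 6 of 6 endothelial marker probe sets lay under it. Their averages per array were 3.79 to 4.12, 4.00 to 4.16 and 3.28 to 3.38. Among the leukocyte markers PTPRC lay lowest, at 1.89 to 2.29, while SPI1 lay at 5.12 to 5.37 and CORO1A at 5.34 to 5.84. CD53 was called higher in the combined knockdown than after H3.Y siRNA (log2 0.87 ± 0.13, adjusted p = 0.023 in limma), the 1 call among the 7. Epithelial markers averaged 4.71 and 4.76 with luciferase, 4.30 and 4.57 after H3.Y siRNA and 5.60 and 5.58 in the combined knockdown. There both EPCAM probe sets were called higher against luciferase, by log2 2.25 and 2.73. CDH1 and KRT14 differed by 0.59 and 0.53 without a call, and CLDN7, GRHL2 and KRT5 by -0.05, -0.06 and 0.00. Of the mesenchymal markers COL1A1 alone was called there, at 1.58. More markers were called between the knockdowns, where 4.67% of all probe sets were called. COL1A1, CDH2 and SPARC, 3 of 7 mesenchymal probe sets (42.9%), were higher in the combined knockdown than after H3.Y siRNA. So were KRT14 and both EPCAM probe sets, 3 of 7 epithelial probe sets (42.9%). In either list 0 were called lower. Whether these marker changes have a part in the integrin changes was not tested. In bulk RNA, fewer cells that carry a transcript and less transcript per cell cannot be told apart.

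The integrin changes were uneven across subunits and differed by knockdown. In the combined knockdown the beta subunit genes ITGB3 and ITGB8 rose and the alpha subunit gene ITGA4 fell. After H3.Y siRNA alone 0 of the 40 probe sets were called. The direct comparison of the knockdowns called 7 genes, with ITGB3, ITGB8, VCL, LIMS1 and FERMT2 higher and ITGA2 and ITGA4 lower in the combined knockdown. Shared parts of the machinery, among them ITGB1, ITGB5, PTK2 and ZYX, were called in none of the 3 comparisons.

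**Figure D1:**
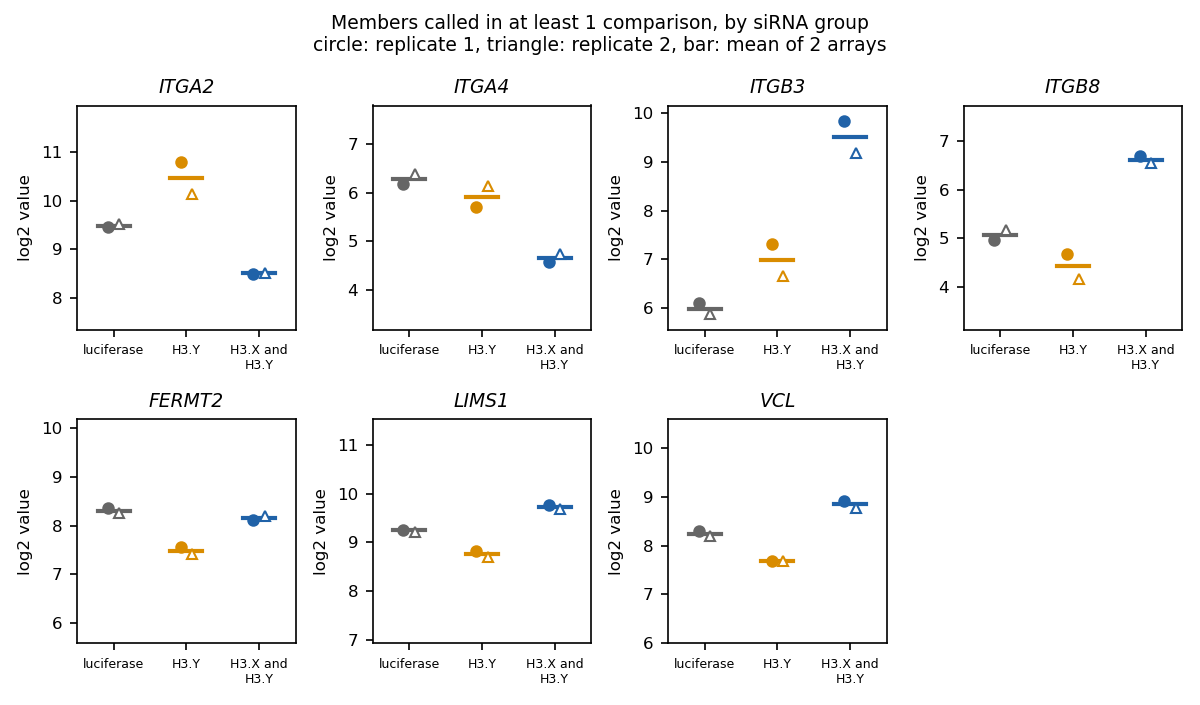
Log2 value of each array (y axis) by siRNA group (x axis) for the 7 genes called in at least 1 comparison. Points are single arrays and bars are means of 2 arrays. ITGB3 and ITGB8 stand highest in the combined knockdown, ITGA4 stands lowest there, and ITGA2 is highest after H3.Y siRNA and lowest in the combined knockdown.

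ITGB3 encodes the beta3 subunit, which pairs with alphaV in the vitronectin receptor and with alphaIIb on platelets. Its probe set read 6.10 and 5.88 log2 units on the luciferase arrays, 7.31 and 6.65 after H3.Y siRNA, and 9.83 and 9.18 in the combined knockdown. The 3 groups did not overlap, with the combined knockdown well above the others. In the combined knockdown it was 11.5-fold above luciferase (log2 3.52 ± 0.29 SE, n = 2 arrays per group, adjusted p = 0.013 in limma) and 5.78-fold above H3.Y siRNA (log2 2.53 ± 0.29, adjusted p = 0.012). After H3.Y siRNA the difference from luciferase was log2 0.99 ± 0.29 and did not pass (adjusted p = 0.21).

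ITGB8 encodes beta8, another alphaV partner, known for binding latent TGF-beta. It read 4.96 and 5.17 with luciferase, 4.68 and 4.16 after H3.Y siRNA, and 6.69 and 6.54 in the combined knockdown. Both combined knockdown arrays lay above all others, and both H3.Y arrays lay below luciferase. It rose by log2 1.55 ± 0.20 against luciferase (2.93-fold, n = 2 per group, adjusted p = 0.026 in limma) and by 2.19 ± 0.20 against H3.Y siRNA (4.57-fold, adjusted p = 0.0073). After H3.Y siRNA it differed from luciferase by -0.64 ± 0.20 (adjusted p = 0.24).

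ITGA4 encodes alpha4, which pairs with beta1 or beta7 and binds VCAM1 and fibronectin. It read 6.18 and 6.39 with luciferase, 5.70 and 6.13 after H3.Y siRNA, and 4.58 and 4.75 in the combined knockdown. The combined knockdown arrays were the lowest and fell under the median of all probe set means, 5.11. The fall was 3.07-fold against luciferase (log2 -1.62 ± 0.19, n = 2 per group, adjusted p = 0.021 in limma) and 2.37-fold against H3.Y siRNA (log2 -1.25 ± 0.19, adjusted p = 0.023).

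ITGA2 encodes alpha2, the collagen-binding partner of beta1. It read 9.45 and 9.52 with luciferase, 10.80 and 10.13 after H3.Y siRNA, and 8.50 and 8.52 in the combined knockdown. The H3.Y arrays lay above luciferase and the combined knockdown arrays below it, with no overlap among the 3 groups. Against luciferase the difference was log2 0.98 ± 0.22 after H3.Y siRNA (adjusted p = 0.15 in limma, n = 2 per group) and -0.98 ± 0.22 in the combined knockdown (adjusted p = 0.10), neither past the threshold. The first was 0.64 without H3.Y replicate 1, and 1.31 without H3.Y replicate 2, where it passed (adjusted p = 0.031). The second passed without either H3.Y array (adjusted p = 0.035), which gives the same fit as the 4 arrays compared. Between the knockdowns it was 3.87-fold lower in the combined knockdown (log2 -1.95 ± 0.22, adjusted p = 0.012).

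The other 3 called genes belong inside the cell. VCL encodes vinculin, which links talin to actin. It read 8.29 and 8.19 with luciferase, 7.68 and 7.69 after H3.Y siRNA, and 8.91 and 8.78 in the combined knockdown. LIMS1 encodes PINCH1, the LIM-domain partner of integrin-linked kinase, and read 9.26 and 9.22, then 8.82 and 8.70, then 9.76 and 9.68 in the same order. For both genes luciferase lay between the knockdowns and no groups overlapped. VCL was 2.24-fold (log2 1.16 ± 0.13, adjusted p = 0.012 in limma, n = 2 per group) and LIMS1 1.94-fold (0.96 ± 0.13, adjusted p = 0.018) higher in the combined knockdown than after H3.Y siRNA. Against luciferase neither passed, with VCL at -0.56 ± 0.13 after H3.Y siRNA and 0.60 ± 0.13 in the combined knockdown, and LIMS1 at -0.48 ± 0.13 and 0.48 ± 0.13. A further 2 probe sets that list LIMS1 also carry its near-identical copies LIMS3 and LIMS4 and were not used, and the LIMS1 probe set may also read those copies.

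FERMT2 encodes kindlin-2, the kindlin of mesenchymal cells. It read 8.36 and 8.25 with luciferase, 7.56 and 7.41 after H3.Y siRNA, and 8.12 and 8.20 in the combined knockdown. The H3.Y arrays were the low ones. The combined knockdown was 1.59-fold above H3.Y siRNA (log2 0.67 ± 0.13, n = 2 per group, adjusted p = 0.045 in limma), and the difference of H3.Y siRNA from luciferase was -0.82 ± 0.13 (adjusted p = 0.081). Leaving out any 1 of the 6 arrays ended the call between the knockdowns, at adjusted p from 0.086 to 0.25, with values from 0.60 to 0.75.

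The count of members called in each comparison was read against the share of all probe sets called there. Against luciferase the combined knockdown called 3 of 40 members (7.5%), where 1.84% of all probe sets were called. The 2 higher members stand beside a background of 0.859% higher and the 1 lower beside 0.985%. Between the knockdowns 7 of 40 (17.5%) were called where the share was 4.67%, 5 higher (background 2.74%) and 2 lower (background 1.92%). After H3.Y siRNA 0 of 40 were called in limma where the share was 0.279% (0.0841% higher and 0.195% lower), and 14 (35%) had an unadjusted p under 0.05, where 13.9% of all probe sets did. An unadjusted p under 0.05 was found for 12 members (30%) in the combined knockdown, against 15.3% of all probe sets, and for 17 (42.5%) between the knockdowns, against 19%. Arrays did not overlap for 21 members (52.5%) with H3.Y against luciferase, 24 (60%) with the combined knockdown against luciferase and 26 (65%) with one against the other, beside 41.7%, 47.4% and 46.6% of all probe sets. The median difference of the members was 0.00 with H3.Y siRNA and 0.08 with the combined knockdown, and 0.11 for one against the other, against 0.02, 0.00 and -0.03 over all probe sets. These medians include members that differed in both directions. The median size of the difference, without its sign, was log2 0.21 with H3.Y siRNA and 0.15 with the combined knockdown, and 0.34 for one against the other, beside 0.17, 0.16 and 0.185 over all probe sets. Both comparisons with luciferase share its 2 arrays.

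Calls depended on the number of arrays. Without luciferase replicate 1 or 2, or without combined knockdown replicate 1 or 2, 0 members were called in the combined knockdown against luciferase, and 0 of all probe sets. Over these 4 fits ITGB3 stayed between log2 3.19 and 3.84, ITGB8 between 1.45 and 1.66 and ITGA4 between -1.72 and -1.51. Between the knockdowns 0 members were called without combined knockdown replicate 1 or 2, where ITGB3, ITGB8 and ITGA2 gave 2.21 and 2.85, 2.12 and 2.26, and -1.94 and -1.97. Without luciferase replicate 1 or 2, ITGA2, ITGB3, ITGB8 and VCL kept their calls between the knockdowns, and LIMS1, ITGA4 and FERMT2 lost theirs. Without H3.Y replicate 2 the differences after H3.Y siRNA were log2 1.67 for ITGA5, 1.31 for ITGA2, 1.06 for PXN (7967002) and -1.30 for ITGA6. Without H3.Y replicate 1 they were 0.70, 0.64, 0.80 and -0.59 in that order.

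For 27 of the 39 genes the table of RefSeq promoter sequences used here, on build GRCh38.p14, held an entry. The 250 bases before the annotated start are shown for 4 called genes, chosen after their values were seen. ITGB8 and ITGA4 moved in opposite directions in the combined knockdown, and VCL and ITGA2 in opposite directions between the knockdowns. ITGB8 is at chr7:20330650-20330899 (+ strand), ITGA4 at chr2:181457136-181457385 (+ strand), VCL at chr10:73997866-73998115 (+ strand) and ITGA2 at chr5:52989102-52989351 (+ strand). Capitals mark the SP1 GC box GGGCGG, the TEAD motif GGAATG and the AP-1 motif TGANTCA, searched on both strands together with the SRF CArG box. Before ITGB8 the GC box stands on the reverse strand and reads CCGCCC.
ITGB8: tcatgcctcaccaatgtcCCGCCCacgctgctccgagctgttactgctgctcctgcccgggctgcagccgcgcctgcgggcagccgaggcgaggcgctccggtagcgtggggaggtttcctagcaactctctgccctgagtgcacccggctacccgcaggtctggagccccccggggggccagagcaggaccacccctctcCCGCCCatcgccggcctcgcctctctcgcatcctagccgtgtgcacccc
ITGA4: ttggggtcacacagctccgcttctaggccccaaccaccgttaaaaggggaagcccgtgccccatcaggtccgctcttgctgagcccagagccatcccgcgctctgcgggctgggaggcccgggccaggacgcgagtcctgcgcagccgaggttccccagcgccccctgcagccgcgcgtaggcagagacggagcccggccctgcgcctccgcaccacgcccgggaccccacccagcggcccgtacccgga
VCL: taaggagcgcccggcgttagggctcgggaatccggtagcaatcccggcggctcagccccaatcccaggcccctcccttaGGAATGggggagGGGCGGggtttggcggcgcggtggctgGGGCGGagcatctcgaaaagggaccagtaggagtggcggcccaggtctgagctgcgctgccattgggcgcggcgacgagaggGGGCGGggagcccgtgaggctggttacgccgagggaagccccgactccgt
ITGA2: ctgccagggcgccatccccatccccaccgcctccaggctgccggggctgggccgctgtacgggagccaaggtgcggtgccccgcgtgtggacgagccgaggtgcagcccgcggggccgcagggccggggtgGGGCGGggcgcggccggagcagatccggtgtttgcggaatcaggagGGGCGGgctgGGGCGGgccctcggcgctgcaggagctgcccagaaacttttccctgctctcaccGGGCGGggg
The GC box, found in 42.6% of all 35116 promoter sequences of this length, had 2 matches before ITGB8, 3 before VCL and 4 before ITGA2. VCL also had 1 TEAD match, a motif present in 11.9% of promoters. ITGA4 had 0 matches to any of the 4 motifs, and none of the 4 genes matched AP-1 (6.57% of promoters) or the CArG box (1.16%) in this window. The matches in these 4 windows did not overlap one another. GC content was 71.2% for ITGB8, 72.8% for ITGA4, 70.4% for VCL and 76.4% for ITGA2, against a median of 58% over all promoters.

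**Figure D2:**
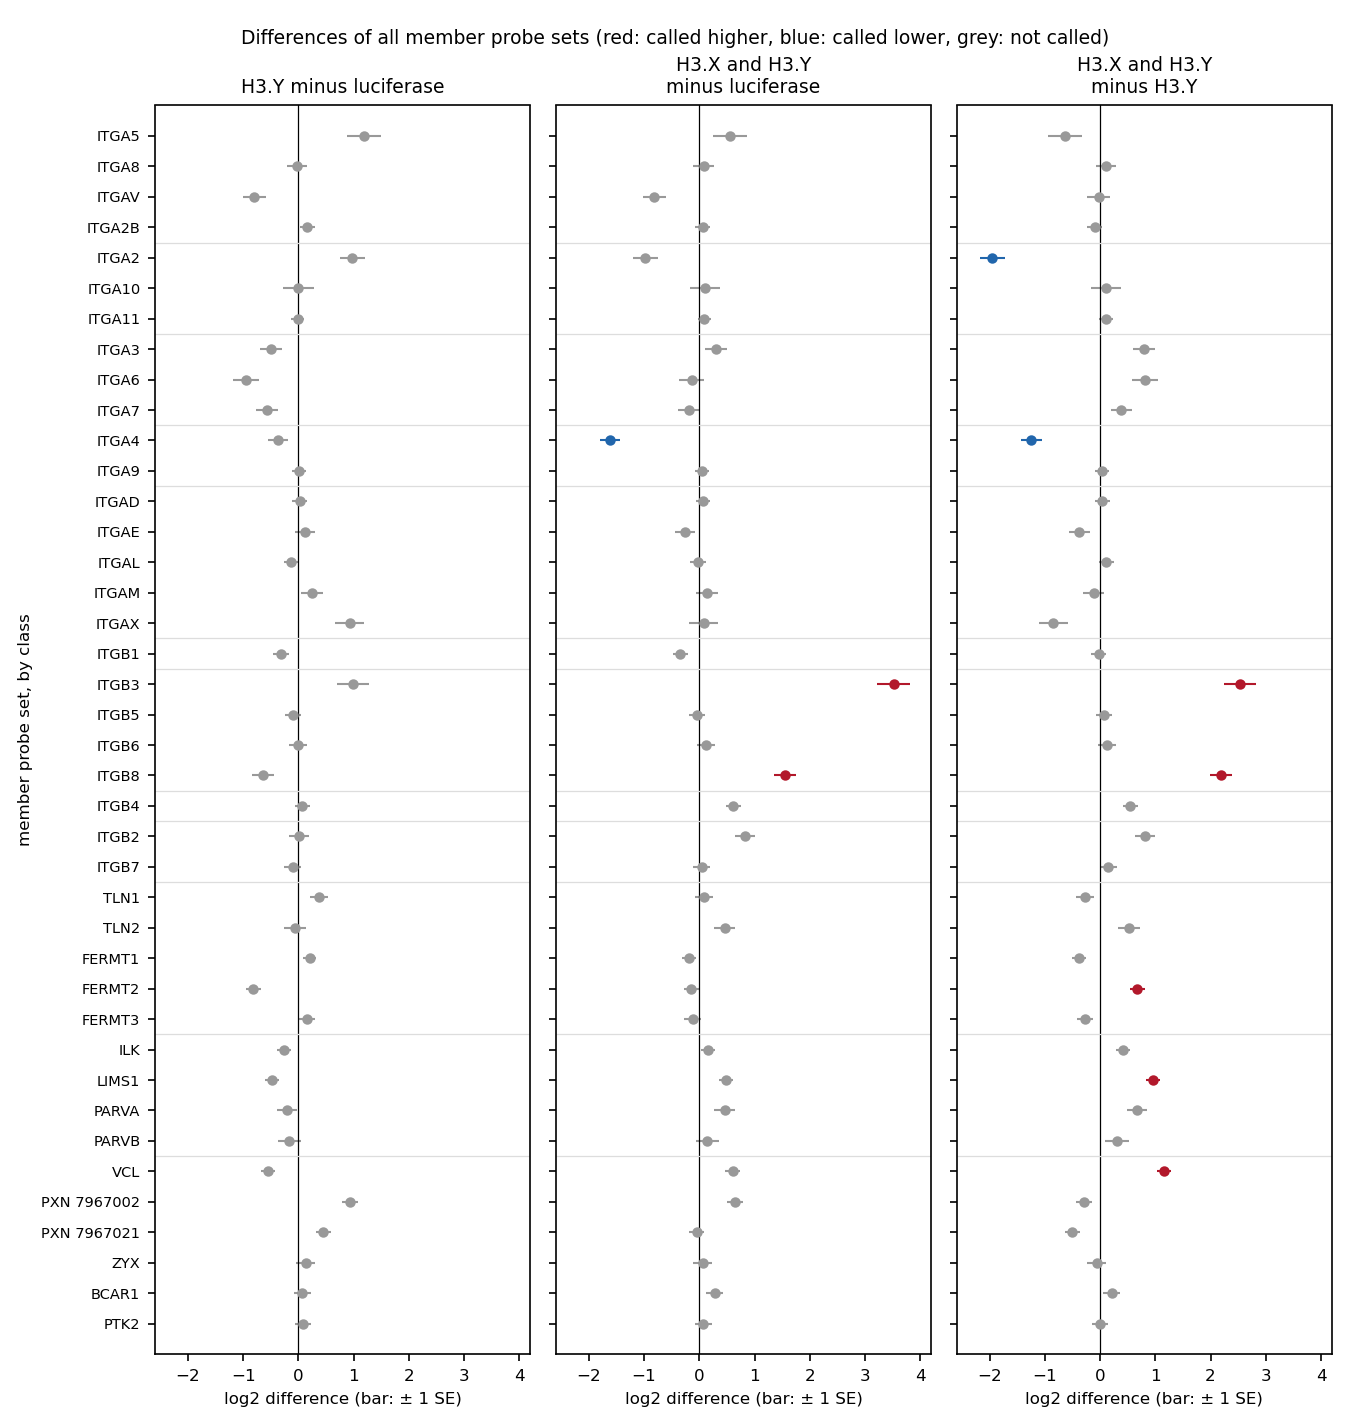
Log2 difference (x axis, bars ± 1 SE) of all 40 member probe sets (y axis, grouped by class) in the 3 comparisons. Red and blue mark calls. ITGB3 lies farthest from 0, at log2 3.52 in the combined knockdown against luciferase, while the panel for H3.Y siRNA holds no call.

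Among the alpha subunits that bind RGD ligands, none was called. ITGA5, the fibronectin receptor alpha subunit, read 9.20 and 9.15 with luciferase, 10.85 and 9.88 after H3.Y siRNA, and 9.86 and 9.59 in the combined knockdown. Its 2 H3.Y arrays lay above luciferase but far apart. The difference was log2 1.19 ± 0.31 after H3.Y siRNA (adjusted p = 0.17 in limma, n = 2 per group), 0.70 without H3.Y replicate 1 and 1.67 without replicate 2, where it passed (adjusted p = 0.029). ITGAV encodes alphaV, which pairs with beta1, beta3, beta5, beta6 or beta8. It read 9.14 and 9.01 with luciferase, 8.56 and 8.0 after H3.Y siRNA, and 8.36 and 8.15 in the combined knockdown. Both knockdowns lay below luciferase, by log2 -0.80 ± 0.21 (adjusted p = 0.18) and -0.82 ± 0.21 (adjusted p = 0.13), without passing. The first was -1.08 without H3.Y replicate 1 and -0.52 without replicate 2, and passed in neither case. The alphaV value was thus not above luciferase where ITGB3 and ITGB8 rose. ITGA8 and the platelet subunit gene ITGA2B differed by at most 0.16 log2 units in any comparison, and ITGA8 had a mean under the lower quartile of all probe sets, 3.33.

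Of the collagen receptors, ITGA10 and ITGA11 stayed between 3.41 and 4.39 log2 units on all arrays, with differences from -0.02 to 0.11. The laminin receptor alpha subunits gave no call. ITGA6, which pairs with beta1 or beta4, read 9.97 and 9.95 with luciferase, 8.66 and 9.37 after H3.Y siRNA, and 9.81 and 9.84 in the combined knockdown. Only the H3.Y arrays were low, at log2 -0.95 ± 0.23 from luciferase (adjusted p = 0.16 in limma, n = 2 per group). Without H3.Y replicate 2 this was -1.30 and passed (adjusted p = 0.031), and without replicate 1 it was -0.59. ITGA3, the main laminin receptor subunit of many adherent cells, read 9.51 and 9.15, then 8.75 and 8.92, then 9.83 and 9.42, and was 0.79 ± 0.20 higher in the combined knockdown than after H3.Y siRNA (adjusted p = 0.086). ITGA7, the laminin receptor of muscle, differed from luciferase by -0.57 ± 0.19 after H3.Y siRNA (adjusted p = 0.27). ITGA9, the relative of ITGA4, differed by at most 0.05.

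The leukocyte alpha subunit genes ITGAD, ITGAE, ITGAL and ITGAM stayed between 3.37 and 5.35 log2 units. ITGAX, which encodes CD11c, read 5.85 and 5.95 with luciferase, 7.22 and 6.44 after H3.Y siRNA, and 6.12 and 5.84 in the combined knockdown. The H3.Y arrays were high and uneven, and the difference of log2 0.93 ± 0.26 did not pass (adjusted p = 0.20 in limma, n = 2 per group). Between the knockdowns ITGAX differed by -0.85 ± 0.26 (adjusted p = 0.14 in limma). The 7 leukocyte markers averaged 4.01 and 3.91 with luciferase and 3.79 and 3.90 after H3.Y siRNA.

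Among the other beta subunits, ITGB1, the partner of most alpha chains, read 10.67 and 10.85 with luciferase, 10.36 and 10.53 after H3.Y siRNA, and 10.39 and 10.45 in the combined knockdown. Its differences from luciferase were log2 -0.31 ± 0.14 and -0.34 ± 0.14, with adjusted p of 0.40 and 0.32 in limma (n = 2 per group). ITGB5, an alphaV partner like ITGB3, stayed between 8.71 and 9.0, and its difference in the combined knockdown was -0.04 with a 95% interval from -0.39 to 0.32. ITGB6, the epithelial alphaV partner, stayed between 3.04 and 3.44.

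ITGB2, the leukocyte beta subunit, read 5.56 and 5.23 with luciferase, 5.58 and 5.24 after H3.Y siRNA, and 6.29 and 6.16 in the combined knockdown. ITGB4, the laminin receptor beta subunit of hemidesmosomes, read 4.80 and 4.73, then 4.91 and 4.75, then 5.32 and 5.44. Both were highest in the combined knockdown with no overlap, and both missed the threshold against luciferase (log2 0.83 ± 0.18, adjusted p = 0.090, and 0.62 ± 0.14, adjusted p = 0.091, limma, n = 2 per group). Against H3.Y siRNA the differences were 0.82 (adjusted p = 0.063) and 0.55 (adjusted p = 0.082). ITGB7, the partner of alpha4 and alphaE on lymphocytes, stayed between 4.28 and 4.59.

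**Figure D3:**
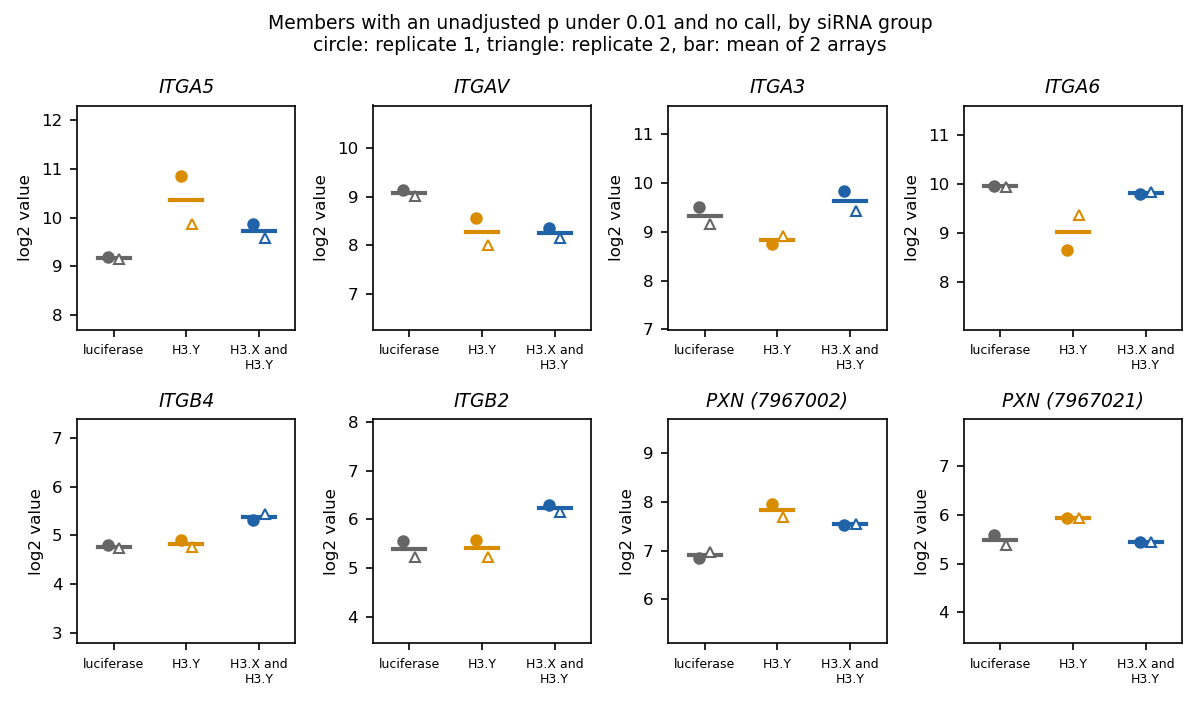
Log2 value of each array (y axis) by siRNA group (x axis) for the 8 probe sets with an unadjusted p under 0.01 in a comparison but no call. ITGA5 and ITGA6 show H3.Y arrays that lie apart from each other, and ITGB2 and ITGB4 are highest in the combined knockdown.

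Talins and kindlins activate integrins from within. TLN1, the broadly expressed talin, differed from luciferase by log2 0.37 ± 0.16 after H3.Y siRNA (adjusted p = 0.40 in limma, n = 2 per group) and by 0.09 in the combined knockdown. TLN2 gave -0.06 and 0.46 ± 0.19 (adjusted p = 0.33 for the latter). The epithelial kindlin gene FERMT1 and the blood cell kindlin gene FERMT3 differed between the knockdowns by -0.38 ± 0.12 and -0.27 ± 0.15, in contrast to FERMT2 at 0.67, and neither was called.

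The complex of ILK, PINCH and parvin binds the beta tail beside kindlin and recruits actin. Between the knockdowns all 4 genes of the member list had a difference above 0, of which LIMS1 alone was called. Their relatives LIMS2 and PARVG, measured among the other adhesion components, gave log2 0.02 and 0.37 without a call. PARVA, alpha-parvin, read 7.94 and 7.67 with luciferase, 7.80 and 7.38 after H3.Y siRNA, and 8.24 and 8.29 in the combined knockdown. The difference between the knockdowns was log2 0.67 ± 0.19 (adjusted p = 0.11 in limma, n = 2 per group). ILK, the kinase-like hub of the complex, read 8.91 and 8.82, then 8.67 and 8.54, then 9.01 and 9.03, a difference of 0.41 ± 0.13 between the knockdowns (adjusted p = 0.14). PARVB, beta-parvin, gave 0.31 ± 0.21.

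Of the scaffolds, PXN encodes paxillin, a docking protein of focal adhesions, and its 2 probe sets differed. Probe set 7967002 read 6.84 and 6.97 with luciferase, 7.96 and 7.70 after H3.Y siRNA, and 7.53 and 7.55 in the combined knockdown. Probe set 7967021 read 5.59 and 5.39, then 5.94 and 5.94, then 5.44 and 5.45. Both were highest after H3.Y siRNA, but only the first lay above luciferase in the combined knockdown. The first differed from luciferase by log2 0.93 ± 0.15 after H3.Y siRNA (adjusted p = 0.075 in limma, n = 2 per group) and 0.64 ± 0.15 in the combined knockdown (adjusted p = 0.099), the second by 0.45 ± 0.13 and -0.05 ± 0.13. Without H3.Y replicate 2 the first passed after H3.Y siRNA, at 1.06. ZYX, the actin regulator zyxin, and BCAR1, the docking protein p130Cas, gave differences from -0.06 to 0.28 over the 3 comparisons. PTK2, focal adhesion kinase, read 9.58 and 9.56, then 9.76 and 9.56, then 9.75 and 9.54, with a difference of 0.08 from luciferase in the combined knockdown and a 95% interval from -0.28 to 0.43.

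The 2 arrays of a group were not equally close. For the members, the absolute difference between the 2 arrays had a median of 0.123 log2 units with luciferase, 0.268 after H3.Y siRNA and 0.0831 in the combined knockdown, against 0.169, 0.219 and 0.143 over all probe sets. A difference above 0.5 between arrays of a group was seen for 9 of the 40 members after H3.Y siRNA and for 1 in each other group. With 2 arrays a group, the number of arrays limits the precision of every value, and values after H3.Y siRNA carry the widest spread. The SE does not show this, since each probe set has 1 spread shared by the 3 groups.

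Genes for integrin ligands were examined beside the receptors, from a list of 33 chosen with earlier results of these data known, of which 31 were measured on 31 probe sets. Between the knockdowns 7 were called higher and 0 lower (22.6% against 4.67% of all probe sets). After H3.Y siRNA 0 were called in limma, and 13 (41.9%) had an unadjusted p under 0.05, against 13.9% of all probe sets. In the combined knockdown 4 rose (12.9%, against 1.84% of all probe sets) and 0 fell. Like every other call of the combined knockdown against luciferase, these 4 depended on having both luciferase and both combined knockdown arrays. The median difference of the 31 ligand probe sets was log2 -0.09 with H3.Y siRNA and 0.27 with the combined knockdown, and 0.35 for one against the other.

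EDIL3, a secreted RGD protein that binds alphaV receptors, had the largest difference between the knockdowns among the called ligands. It read 6.48 and 6.69 with luciferase, 4.64 and 5.21 after H3.Y siRNA, and 8.40 and 8.15 in the combined knockdown. The H3.Y arrays lay below luciferase and the combined knockdown arrays above it. It was 10.2-fold higher in the combined knockdown than after H3.Y siRNA (log2 3.35 ± 0.22, adjusted p = 0.0050 in limma, n = 2 per group). Against luciferase it rose by 1.69 ± 0.22 in the combined knockdown (adjusted p = 0.026) and gave -1.66 ± 0.22 after H3.Y siRNA (adjusted p = 0.055). The RGD proteins fibronectin (FN1) and thrombospondin 1 (THBS1) also rose, from 9.40 and 9.34 with luciferase to 11.93 and 11.55, and from 9.80 and 8.95 to 12.02 and 11.87. COL1A1, a chain of collagen I, rose from 9.06 and 8.93 to 10.73 and 10.42. COL4A1, a basement membrane collagen chain, LAMC1, the laminin gamma1 chain, and FBLN5, an RGD protein of elastic fibres, were called between the knockdowns, at 1.64 ± 0.23, 0.74 ± 0.15 and 0.84 ± 0.16. Leaving out any 1 array ended the call between the knockdowns for some or all of the 7 ligands. FBLN5 was low after H3.Y siRNA (5.21 and 5.44) rather than high in the combined knockdown (6.27 and 6.06, with luciferase at 6.52 and 6.31).

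A list of 53 other adhesion components, 46 measured on 49 probe sets, gave 2 called higher and 0 lower in the combined knockdown (4.08%, against 1.84% of all). Between the knockdowns 4 were higher and 2 lower (12.2% against 4.67%). After H3.Y siRNA 0 were called in limma, and 12 (24.5%) had an unadjusted p under 0.05, against 13.9% of all probe sets. TNS3, tensin 3, which binds beta tails, read 6.24 and 6.16 with luciferase, 5.51 and 5.60 after H3.Y siRNA, and 7.30 and 7.10 in the combined knockdown. It rose by log2 1.00 ± 0.14 against luciferase (adjusted p = 0.029 in limma, n = 2 per group) and 1.65 ± 0.14 against H3.Y siRNA (adjusted p = 0.0058). NEDD9, the p130Cas relative, read 4.44 and 4.30, then 4.65 and 4.09, then 6.27 and 5.76, and rose by 1.64 ± 0.25 against luciferase (adjusted p = 0.034), while BCAR1 itself gave 0.28. Between the knockdowns caveolin 1 (CAV1, 2.06 ± 0.36) and the LIM protein gene CSRP1 (0.74 ± 0.14) were higher. The kinase genes PAK2 (-0.97 ± 0.14) and FYN (-0.63 ± 0.13) were lower. The 2 component calls against luciferase, like all calls of that comparison, depended on having both luciferase and both combined knockdown arrays. Between the knockdowns the component calls also changed with the array left out.

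**Figure D4:**
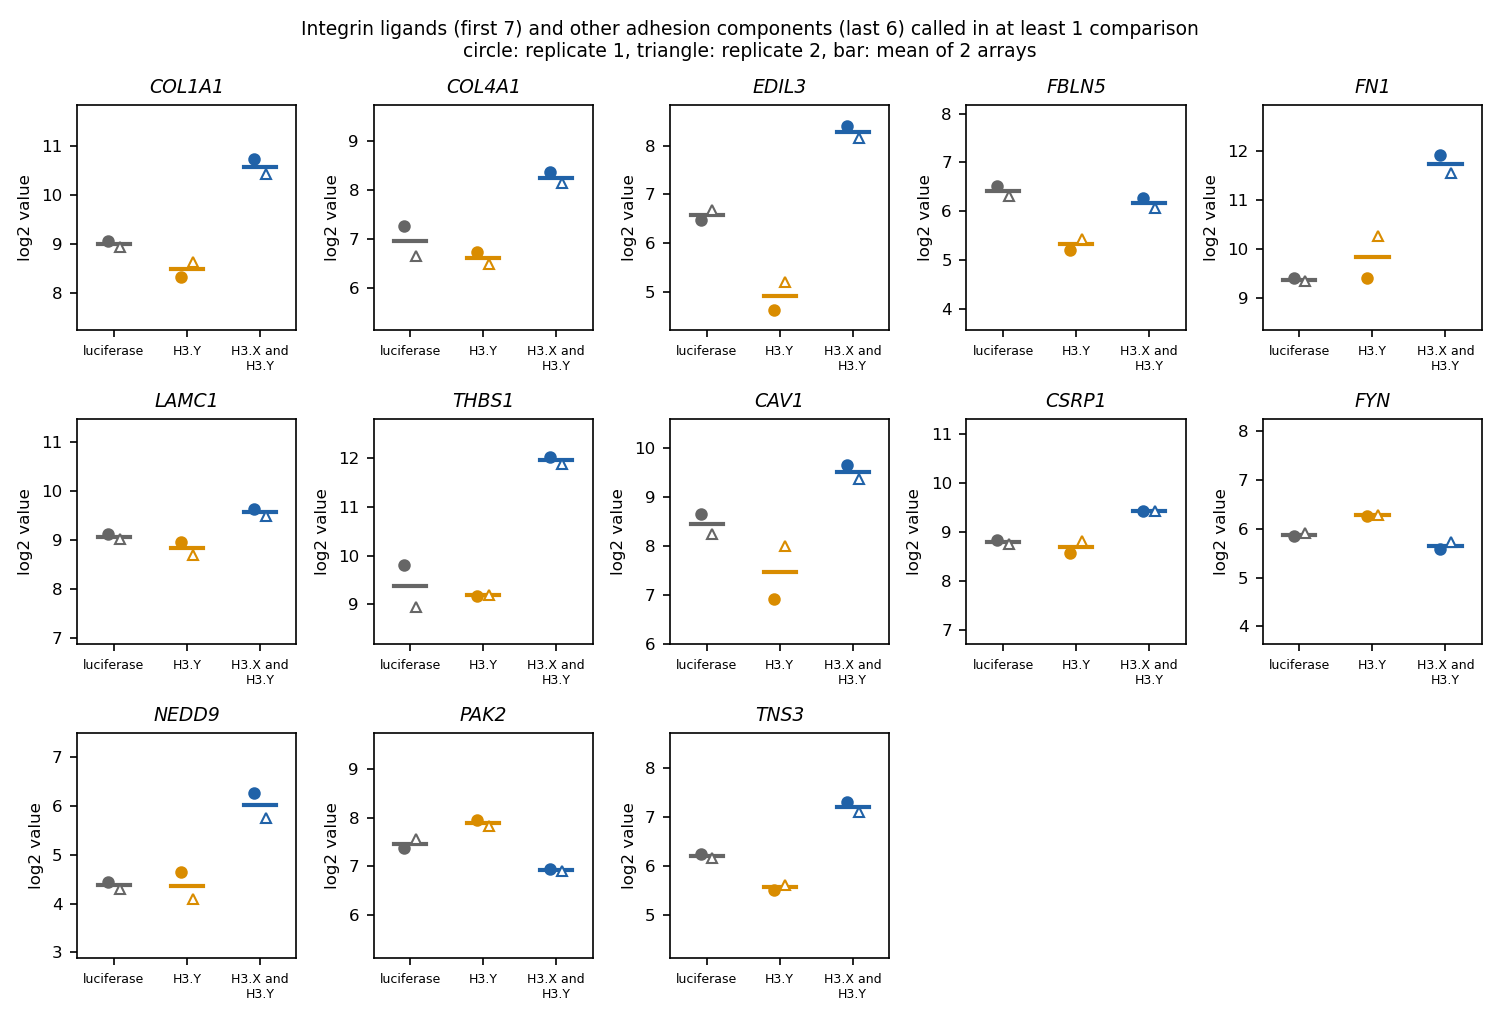
Log2 value of each array (y axis) by siRNA group (x axis) for the 7 integrin ligand genes and the 6 other adhesion genes called in at least 1 comparison. EDIL3 and TNS3 are lowest after H3.Y siRNA and highest in the combined knockdown, while PAK2 and FYN show the opposite order.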

How the data were processed

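Total RNA of U2OS cells was hybridised to 6 Affymetrix arrays, 3 siRNA groups of 2, grouped and numbered from the labels. The deposited values are log2 levels per probe set that the authors obtained with oligo, a Bioconductor package, per the submitters' processing notes. Its version, the way probes were summarised and the build were not given in the sources used here. From the range of the values (0.687 to 14.0) base 2 was inferred. Values were used as deposited, with 0 value columns unused, and near-equal array medians hide any change common to all transcripts. Probe sets were named from the platform annotation (19460 with 1 symbol, 1754 with several, 12083 unnamed here). For 19429 of those with 1 symbol, the RefSeq symbol of the same Entrez ID was used, whether or not it differed.

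All probe sets were fitted with limma 3.58.1 in R 4.3.3 (lmFit and eBayes, 1 mean per group, 3 residual and 3.43 prior degrees of freedom), two-sided, with Benjamini-Hochberg adjustment within each of the 3 comparisons. The motif search was tested on made-up sequences. Members and gene lists were chosen with earlier results of these data known. Every called member is named, then members with an unadjusted p under 0.01, then up to 3 per class by size of change, and up to 8 called genes of each list. Any other gene was picked after seeing its values. The alternatives tried were quantile normalization, a replicate block, a fit of 4 arrays for each comparison, median centring, a filter on low means, a mean-dependent prior variance, 1 probe set per gene and each array left out. Promoters come from RefSeq (GRCh38.p14).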

Additional observations from a re-analysis of the deposited data

How the results depend on the processing

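Of 29 differences followed for named members, 0 reversed under the alternatives. Keeping only probe sets with a mean at or above the median (fewer tests) left 27 member probe sets. After H3.Y siRNA 2 were called instead of 0, where 3.24% of the kept probe sets were called, against 0.279% without the filter. In the combined knockdown 7 were called instead of 3, where 8.66% were called, against 1.84%. Between the knockdowns 11 were called instead of 7. That count is given without its share of the kept probe sets and is not read as a result about the members. A prior variance following the mean called 1 after H3.Y siRNA, FERMT2, where 0.616% of all probe sets were called. Fitting just the 4 arrays of the comparison called 4 between the knockdowns, again without its share of all probe sets. With each array left out in turn, the counts ranged from 0 to 5 after H3.Y siRNA, 0 to 4 in the combined knockdown and 0 to 9 between the knockdowns, with 1 residual degree of freedom fewer and the lone array assumed to vary like the other groups. Quantile normalization, median centring and 1 probe set per gene gave the same counts of 0, 3 and 7.

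The shared replicate numbers were checked by the correlation of replicate deviations between groups (0.22, 0.28 and 0.12), and with 2 numbers per group they are not taken as pairs. With the replicate block 0, 4 and 7 members were called. It called 0.204% of all probe sets after H3.Y siRNA and 2.25% in the combined knockdown, and the share between the knockdowns is not given. The block added ITGB2 in the combined knockdown (adjusted p = 0.049, limma). Between the knockdowns it put ITGB2 (adjusted p = 0.034, limma) in place of FERMT2 (0.051). The list counts were followed after the values were seen. For ligands in the combined knockdown, 4 became 7 with the block, 10 with the filter and 9 with the mean-dependent prior. These fits called 2.25%, 8.66% and 2.88% of the probe sets tested. For ligands after H3.Y siRNA, 0 became 2 with the filter and 1 with median centring or the mean-dependent prior. The shares of the probe sets tested were 3.24%, 0.33% and 0.616% in that order. For other components the filter gave 2 in place of 0 after H3.Y siRNA and 4 in place of 2 in the combined knockdown. Its shares over all kept probe sets were again 3.24% and 8.66%. Between the knockdowns it gave 14 in place of 6, and a fit of the 4 arrays compared gave 1 in place of 6. Neither count is set beside its share of the probe sets tested, so neither is read as a result about these genes. Of the members, 13 of 40 probe sets had a mean under the median of all probe sets.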
